A study of Mus musculus with 6 samples.

Results

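The transcriptional response of unmodified J1 cells to retinoic acid (RA) was read from 1 library treated with RA and 1 library treated with vehicle. J1 is a mouse embryonic stem (ES) cell line of strain 129S4/SvJae. For each gene the response is the level with RA minus the level with vehicle on the scale log2(FPKM + 1), where FPKM are the deposited expression values, which scale reads by transcript length and by depth. A gene was included when its mean over these 2 libraries was at least 1 FPKM, which 11146 of 20460 genes reached. At that limit, Shroom4 (1.24 FPKM with RA, 0.757 FPKM with vehicle) was just included and Map3k15 (1.20 FPKM with RA, 0.799 FPKM with vehicle) just fell short. With 1 library per treatment there is no replicate error and no test of the response itself, so genes are described by size. A response of at least 2-fold means a difference of at least 1 on the log2 scale.

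The series held 6 libraries from 3 lines, each sampled once after 48 h with 1 µM RA and once after 48 h with the ethanol vehicle. The lines were genotyped as wild type, as carrying a scramble short hairpin RNA (shRNA), and as carrying an shRNA that knocks down Carm1, the gene of an arginine methyltransferase. All cells were of the same strain and grew on gelatin with the cytokine LIF, so LIF was present during RA treatment too. Each shRNA was represented by 1 line. Carm1 was at 29.5 FPKM with RA and 37.0 FPKM with vehicle in wild-type cells, at 29.9 and 36.1 FPKM in scramble cells, and at 6.73 and 8.49 FPKM in Carm1 shRNA cells. The labelled knockdown is therefore seen in the line that carries it.

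The deposited FPKM of a library summed to 505266 to 537592, and 10630 to 11518 genes reached 1 FPKM. The steps between the lowest values put the depth at about 33900000 reads in the wild-type RA library and 32400000 reads in the wild-type vehicle library. At that depth 1 FPKM of a transcript of 2000 bases stands for about 67.8 reads with RA and 64.7 reads with vehicle. All 10 ES cell markers were detected in wild-type cells, with a summed level of 3813 FPKM with RA and 5477 FPKM with vehicle. The summed level of 10 fibroblast and feeder markers was 10.9 FPKM with RA and 3.96 FPKM with vehicle, and 3 of them were under 0.1 FPKM in both libraries. That of 5 trophoblast markers was 5.70 FPKM with RA and 1.30 FPKM with vehicle. That of 7 extraembryonic endoderm markers was 17.6 FPKM with RA and 2.05 FPKM with vehicle. That of 6 neuronal markers was 163 FPKM with RA and 264 FPKM with vehicle. In a bulk culture, a change in the number of cells of a type and a change in RNA per cell cannot be told apart.

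RA is made from vitamin A and enters the nucleus on small binding proteins, where it binds the retinoic acid receptors, which pair with retinoid X receptors on DNA. A classic binding site is a direct repeat of a short unit with a spacer of 5 bases, called a DR5 element. In the embryo RA patterns the hindbrain and trunk by switching on Hox genes from the end of each cluster that is expressed closest to the head. In ES cells it is widely used to drive exit from pluripotency, while LIF opposes that exit.

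Promoter windows were searched because 2 of the best known DR5 elements lie just upstream of genes that were far higher with RA. Cyp26a1, which encodes the enzyme that degrades RA, and Rarb, which encodes a retinoic acid receptor, are shown from 250 bases before to 50 bases after their RefSeq start (build GRCm38.p6), with the element in capitals.

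Cyp26a1, chr19:37697558-37697857, plus strand: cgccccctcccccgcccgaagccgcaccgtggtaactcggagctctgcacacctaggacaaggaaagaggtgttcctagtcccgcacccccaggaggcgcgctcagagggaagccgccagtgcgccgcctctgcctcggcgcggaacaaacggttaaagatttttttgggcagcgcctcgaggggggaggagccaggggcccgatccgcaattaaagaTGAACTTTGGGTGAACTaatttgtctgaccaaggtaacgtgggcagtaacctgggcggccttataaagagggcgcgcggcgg

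Rarb, chr14:16575427-16575726, minus strand: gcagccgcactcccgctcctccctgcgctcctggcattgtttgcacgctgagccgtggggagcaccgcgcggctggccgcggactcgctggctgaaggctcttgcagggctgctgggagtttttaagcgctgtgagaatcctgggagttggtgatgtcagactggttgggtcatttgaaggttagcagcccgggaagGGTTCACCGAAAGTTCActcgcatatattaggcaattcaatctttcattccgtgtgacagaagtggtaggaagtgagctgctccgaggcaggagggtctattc

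The search allowed each repeat unit to be AGGTCA or to be AGTTCA or to be GGGTCA or to be GGTTCA, paired in any way across the spacer NNNNN and on both strands, so matches may overlap. The element of Cyp26a1 lies 32 to 16 bases before the start and reads on the reverse strand. That of Rarb lies 53 to 37 bases before the start and reads on the forward strand. Such a match was found in 32 of 32851 promoter windows of this length, or 0.0974%. Among the genes measured here 8449 had a window, and 4 windows held a match. The other genes with a match were Blvrb, which encodes biliverdin reductase B (16.5 FPKM with RA, 8.57 FPKM with vehicle), and Syndig1 (2.68 FPKM with RA, 2.46 FPKM with vehicle). By size, 2 of the 504 higher genes with a window and 0 of the 98 lower genes with a window held one. The 2 are Cyp26a1 and Rarb, whose known elements prompted the search, so this tally tests nothing. The windows are short, and a match to these letters is a description of sequence only.

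Many more genes were higher than lower with RA in wild-type cells. With RA 695 genes (6.24% of those measured) stood at least 2-fold higher and 138 (1.24%) at least 2-fold lower. Of the genes past 2-fold 83.4% were thus higher. The shares of 6.24% and 1.24% are the background for the counts of each gene list below. The largest responses were positive, with 136 genes at least 4-fold higher and 17 lower, 33 at least 8-fold higher and 1 lower, and 17 at least 16-fold higher and 0 lower. The median response of all genes was 0.12, and the central 90% of genes lay between -0.56 and 1.13. This median depends on how the libraries are scaled against each other. Median-of-ratios scaling put it at -0.0021 and quantile normalization at -0.04, a shift of over 0.1, and small responses are read against it. Median-of-ratios scaling gave 580 higher and 200 lower genes (74.4% higher), and quantile normalization gave 442 and 289 (60.5% higher).

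**Figure D1:**
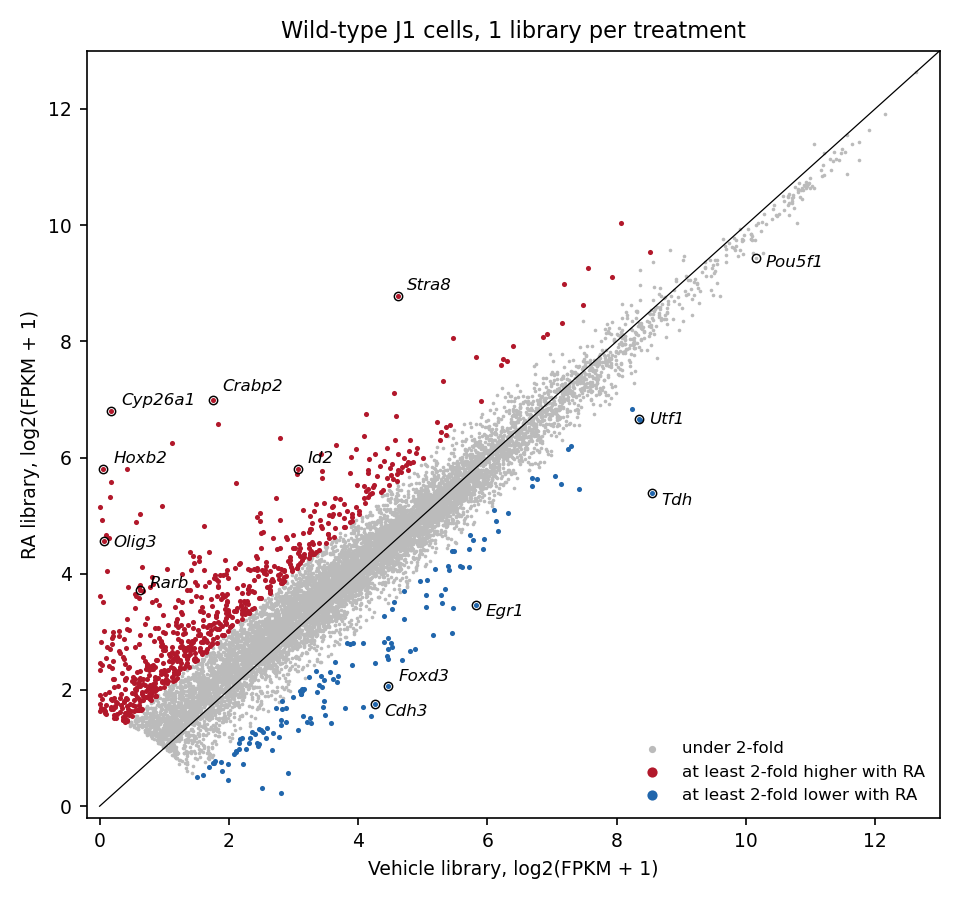
Levels of the 11146 genes in the 2 wild-type libraries, RA on the vertical and vehicle on the horizontal axis, both as log2(FPKM + 1). Each point is a gene and the line marks equal levels; the 695 genes at least 2-fold higher with RA (red) lie mostly at the low end of the vehicle axis, and the 138 lower genes (blue) are fewer.

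Most of the higher genes were weakly expressed with vehicle. Of 509 genes under 1 FPKM with vehicle 235 were at least 2-fold higher and 0 lower, but a gene that low reaches the mean of 1 FPKM only with a higher level under RA. Of 4545 genes between 1 and 10 FPKM with vehicle 354 were higher and 63 lower. Of 5213 genes between 10 and 100 FPKM with vehicle 97 were higher and 63 lower. Among the 879 genes at 100 FPKM or more with vehicle the balance was even, with 9 higher and 12 lower. The vehicle level that sorts the genes is also subtracted in the response, so error in it tilts low groups up and high groups down. How much of the trend this makes was not tested. The 9 abundant higher genes, named after their values were seen, include Mdk, which encodes the heparin-binding growth factor midkine (1045 FPKM with RA, 267 FPKM with vehicle, response 1.97). Cotl1, which encodes an actin-binding protein, was at 505 FPKM with RA and 145 FPKM with vehicle (response 1.79). Spp1, which encodes the secreted matrix protein osteopontin, was at 548 FPKM with RA and 243 FPKM with vehicle (response 1.17).

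The response by size recurred in the other lines, whose libraries played no part in choosing these genes. In a limma fit of RA against vehicle over the scramble and Carm1 shRNA lines, with line as a block, 41.8% of 11227 genes rose and 20.4% fell (adjusted p under 0.05, Benjamini-Hochberg). The balance turned after quantile normalization, with 2874 higher and 3751 lower, and without the filter on low values 0 of 20460 passed in either direction, with 7407 at an unadjusted p under 0.05. The counts of genes that rose or fell in the other lines rest on the filtered values as deposited. Of the 695 genes higher in wild-type cells 678 were tested there, 670 rose (98.8%), 6 did not pass and 2 fell. The 2 that fell were Rps27 and Slc39a14, named after their values were seen and described with the differences between lines. Of the 138 lower genes all 138 were tested, 133 fell (96.4%), 5 did not pass and 0 rose. By size, 568 of the higher and 90 of the lower genes were also past 2-fold in each of the other lines, and 39 and 23 were under 2-fold in both. The fit has 1 residual degree of freedom before moderation, and since nothing describes separate cultures within a line, its p-values measure only the spread between the lines.

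Genes of RA metabolism and transport held the largest single response. Of 16 listed retinoid enzymes 15 were in the table and 6 were measured, 3 of them at least 2-fold higher and 0 lower, with a median response of 1.90 against 0.12 for all genes. Cyp26a1 (chromosome 19, 37772298 to 37776026, build mm9) was at 111 FPKM with RA, against 0.133 FPKM with vehicle, a response of 6.63. It also rose in the other lines, by 7.44 ± 0.09 (SE, limma adjusted p = 1.2e-05). Cyp26b1, a second RA-degrading enzyme, was at 11.3 FPKM with RA and was listed at 0 with vehicle. Dhrs3, a retinaldehyde reductase that returns retinaldehyde to retinol, was at 46.0 FPKM with RA and 3.32 FPKM with vehicle (response 3.44). Rdh10, the retinol dehydrogenase of the first oxidation step, was at 4.04 FPKM with RA and 2.95 FPKM with vehicle. The remaining 9 listed enzymes in the table lay under the mean of 1 FPKM, the highest single value among them being 1.42 FPKM.

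Of 6 measured retinoid carriers 4 were at least 2-fold higher and 0 lower. Crabp2, the binding protein that delivers RA to its receptors in the nucleus, was at 126 FPKM with RA and 2.37 FPKM with vehicle (response 5.24). Stra6, a membrane receptor for retinol uptake, was at 23.6 FPKM with RA and 0.110 FPKM with vehicle (response 4.47). Rbp4, the retinol carrier of blood plasma, was at 4.40 FPKM with RA and 1.52 FPKM with vehicle (response 1.10). Crabp1, a close relative of Crabp2, was at 17.4 FPKM with RA and 27.3 FPKM with vehicle, the opposite side of equality. Among 5 measured receptors Rarb stood apart. It was at 12.1 FPKM with RA and 0.541 FPKM with vehicle (response 3.09), whereas the responses of Rara, Rarg, Rxra and Rxrb lay between -0.25 and 0.21. The median of the receptor list, 0.01, was below 0 under both other scalings.

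Hox genes made up 9 of the 15 largest positive responses. Hox proteins are homeodomain transcription factors that assign position along the body axis, and the 4 clusters responded unequally. In the Hoxb cluster 10 of 10 genes were measured and 10 were at least 2-fold higher, with summed levels of 238 FPKM with RA and 2.75 FPKM with vehicle. In the Hoxa cluster 10 of 11 were measured and 9 were higher, with sums of 276 FPKM with RA and 18.0 FPKM with vehicle. In the Hoxc cluster 2 of 9 were measured and both were higher, Hoxc4 (4.63 FPKM with RA, 0.159 FPKM with vehicle) and Hoxc5 (2.24 FPKM with RA, 0.0117 FPKM with vehicle). In the Hoxd cluster 0 of 9 reached the mean, and the highest value with RA was 1.06 FPKM for Hoxd13 (0.891 FPKM with vehicle). Most of these genes were near 0 with vehicle and passed the limit through their level with RA, so the counts say nothing of the unmeasured genes.

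**Figure D2:**
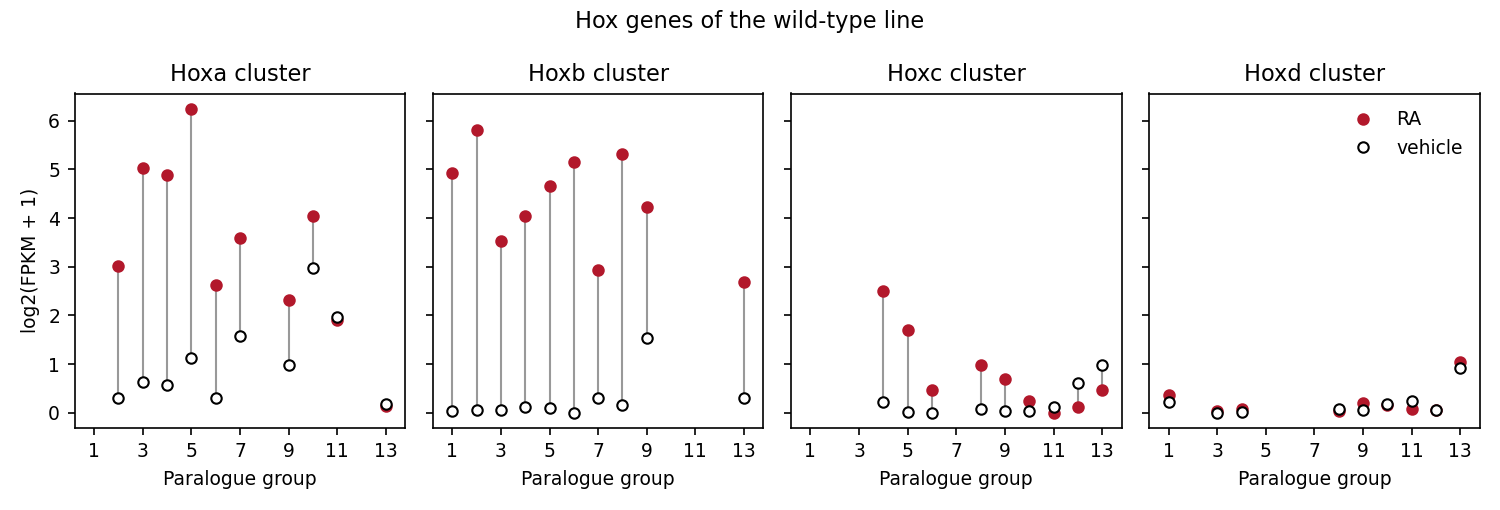
Wild-type levels of Hox genes in the table, as log2(FPKM + 1), by cluster and by paralogue group from the 3′ end of the cluster (1) to the 5′ end (13). Filled points are RA and open points vehicle; the Hoxa and Hoxb clusters show wide gaps in groups 2 to 7, and the Hoxd cluster stays near 0 in both libraries.

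Pooled over the clusters, the median response was 4.32 over 9 measured genes of paralogue groups 1 to 4, 3.59 over 8 of groups 5 to 8, and 1.34 over 5 of groups 9 to 13. This order did not hold within the Hoxb cluster, where Hoxb6 and Hoxb8 (responses of 5.15 and 5.15) lay above Hoxb3 and Hoxb4 (3.46 and 3.93). Hoxb2 had the largest response of the first set, at 55.0 FPKM with RA and 0.0426 FPKM with vehicle (5.75). Hoxb1, the hindbrain gene at the 3′ end, was at 29.3 FPKM with RA and 0.0301 FPKM with vehicle (response 4.88). Hoxa5 was at 75.1 FPKM with RA and 1.18 FPKM with vehicle (response 5.13). These 3 genes were near 0 or 1 FPKM with vehicle. Hoxa10, in contrast, was already at 6.91 FPKM with vehicle and was at 15.6 FPKM with RA (response 1.07). Hoxa11 was the single measured Hox gene that was not at least 2-fold higher, at 2.77 FPKM with RA and 2.92 FPKM with vehicle. The annotated span of Hoxa3 overlaps those of Hoxa4, Hoxa5 and Hoxa6 by 2017, 2834 and 2260 bases, and the strand of counting is not given, so reads of these 4 genes may be shared. In the other lines all 21 of the higher genes rose.

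Several partners of Hox proteins on DNA were higher as well. The TALE homeobox factors bind DNA together with Hox proteins, and 4 of 11 were at least 2-fold higher and 0 lower. Meis2 was at 14.4 FPKM with RA and 0.753 FPKM with vehicle (response 3.13), and Meis1 at 5.88 FPKM with RA and 0.144 FPKM with vehicle. Their relatives Tgif1 and Tgif2, which act as repressors, had responses of -0.35 and -0.15. The other lines showed 8 rises and 1 fall among the 11.

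Beyond retinoid and Hox genes, the largest positive responses were of scattered function. Crygc, a crystallin gene best known from the lens, was at 46.8 FPKM with RA and 0.135 FPKM with vehicle (response 5.40). Zfp703, a zinc finger corepressor gene, was at 55.1 FPKM with RA and 0.338 FPKM with vehicle (response 5.39). Olig3, a basic helix-loop-helix factor of the dorsal neural tube, was at 22.7 FPKM with RA and 0.0496 FPKM with vehicle (response 4.50). All 3 rose in the other lines too (limma adjusted p = 4.1e-05, 2.4e-05 and 7.4e-05).

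**Figure D3:**
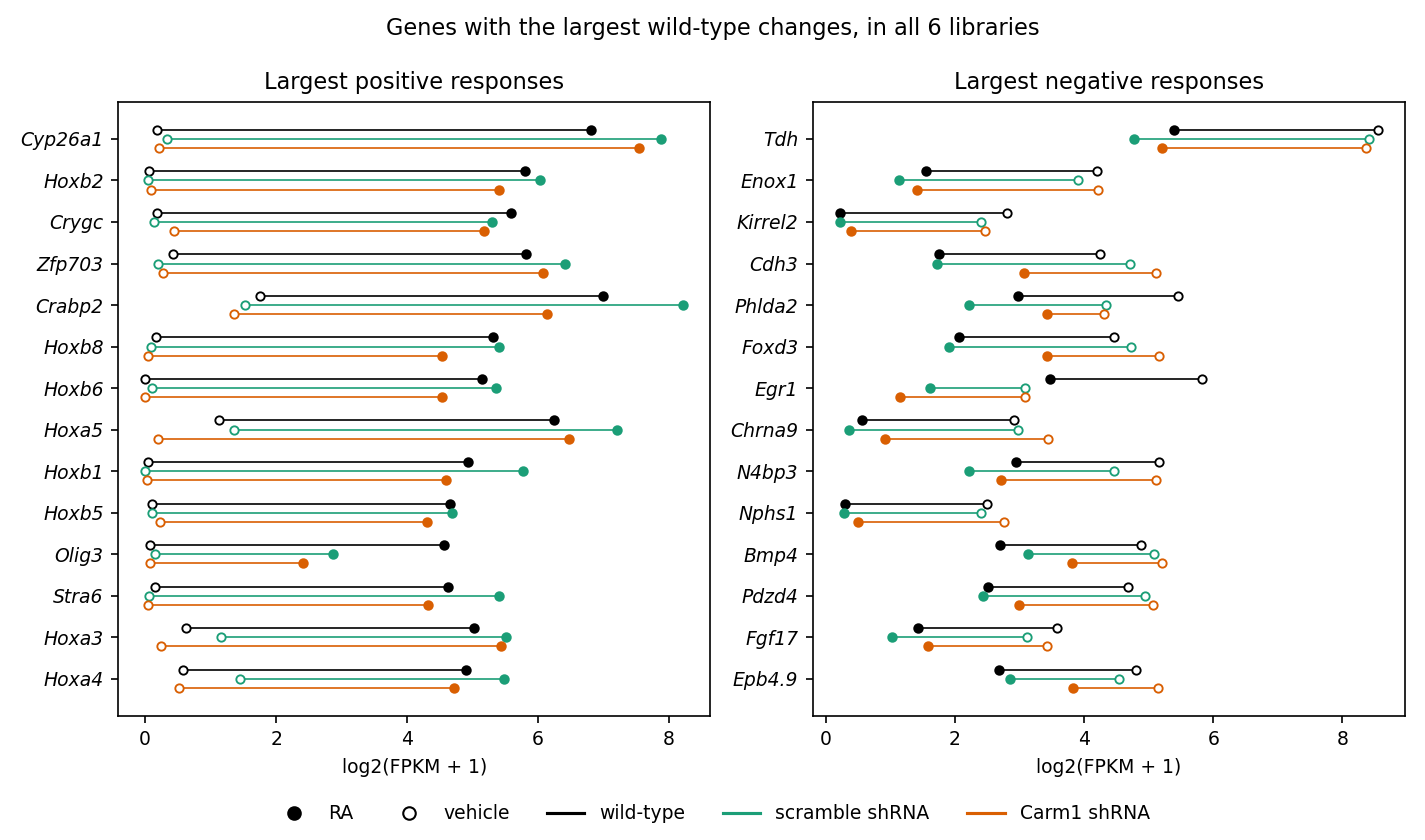
Levels of genes with the largest wild-type responses in all 6 libraries, as log2(FPKM + 1). Filled points are RA and open points vehicle, joined by a line for each line of cells (black wild-type, green scramble, orange Carm1 shRNA); every gene shown moves the same way in the 3 lines.

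The largest negative response was that of Tdh, threonine dehydrogenase, on which mouse ES cells depend for threonine catabolism. It was at 40.9 FPKM with RA and 373 FPKM with vehicle (chromosome 14, 64111184 to 64127929, build mm9), a response of -3.16, and it was the single gene at least 8-fold lower. Enox1, which encodes a cell surface oxidase, was at 1.94 FPKM with RA and 17.4 FPKM with vehicle (response -2.64). Cdh3, the P-cadherin gene, was at 2.38 FPKM with RA and 18.1 FPKM with vehicle (response -2.50). Phlda2, an imprinted gene of placental growth, was at 6.91 FPKM with RA and 42.7 FPKM with vehicle (response -2.47). Foxd3, a forkhead factor of pluripotent cells and the neural crest, was at 3.18 FPKM with RA and 21.1 FPKM with vehicle (response -2.41).

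Of the remaining largest negative responses, several are signalling genes. Egr1, an immediate early transcription factor, was at 10.1 FPKM with RA and 55.6 FPKM with vehicle. With vehicle it was at 7.53 FPKM in both scramble and Carm1 shRNA cells, below even the wild-type level with RA. Bmp4, a bone morphogenetic protein ligand, was at 5.52 FPKM with RA and 28.4 FPKM with vehicle, and the growth factor gene Fgf17 at 1.71 FPKM with RA and 10.96 FPKM with vehicle. Pairs of neighbours occur in this set. Kirrel2 and Nphs1, which encode cell adhesion proteins of the nephrin family, lie 2542 bases apart and had responses of -2.59 and -2.20. Fgf17 and Epb4.9, the gene of the actin-bundling protein dematin, lie 156 bases apart and had responses of -2.14 and -2.12. The set also held Chrna9, an acetylcholine receptor subunit gene (-2.35), N4bp3 (-2.21) and Pdzd4 (-2.17). All 15 fell in the other lines (limma adjusted p from 4.1e-05 to 0.00585).

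Genes of ES cell identity were mostly lower, though few passed 2-fold. Of 29 measured members 6 were at least 2-fold lower and 0 higher, 25 lay below 0, and the median response was -0.57. In the other lines 21 of the 29 fell and 1 rose. Utf1, a chromatin factor of undifferentiated cells, was at 101 FPKM with RA and 324 FPKM with vehicle (response -1.67). Tcl1, a coactivator of Akt signalling, was at 9.61 FPKM with RA and 43.2 FPKM with vehicle (-2.06). Tet1, a 5-methylcytosine dioxygenase gene, was at 23.3 FPKM with RA and 60.4 FPKM with vehicle (-1.34). The core factors stayed abundant. Pou5f1, which encodes Oct4, was at 692 FPKM with RA and 1135 FPKM with vehicle (-0.71), and Sox2 at 141 FPKM with RA and 210 FPKM with vehicle (-0.57). Nanog was at 434 FPKM with RA and 431 FPKM with vehicle, and Tbx3, a naive state factor, at 116 FPKM with RA and 75.6 FPKM with vehicle (0.61).

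Markers of the formative and primed states lay on both sides of equality. Of 14 measured members 2 were at least 2-fold higher and 3 lower, with a median of -0.16. Sall2 (15.02 FPKM with RA, 2.88 FPKM with vehicle) and the N-cadherin gene Cdh2 (6.44 FPKM with RA, 0.894 FPKM with vehicle) were higher. Otx2, a factor of the early epiblast and forebrain, was at 0.369 FPKM with RA and 2.95 FPKM with vehicle. Fgf15, a growth factor gene, was at 1.69 FPKM with RA and 8.69 FPKM with vehicle. The other lines had 3 rises and 8 falls among these 14. The single measured gene of 14 on the list of the two-cell-like state, Eif1a, had a response of -0.43. The other 9 in the table lay under the mean of 1 FPKM. The highest of these with RA were Tmem92 (1.10 FPKM with RA, 0.0143 FPKM with vehicle in wild-type cells), with responses of 1.05 in wild-type, 0.11 in scramble and 0.15 in Carm1 shRNA cells, and Zscan4c (1.10 FPKM with RA, 0.0421 FPKM with vehicle in wild-type cells), with responses of 1.01, 0.37 and 0.62 in the same order.

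Endoderm transcription factors were higher from very low vehicle levels. Of 15 listed factors 6 were measured, 4 at least 2-fold higher and 0 lower, with a median of 1.83. Gata6, a factor of primitive endoderm, was at 7.15 FPKM with RA and 0.364 FPKM with vehicle (response 2.58). Foxa1 was at 6.38 FPKM with RA and 0.299 FPKM with vehicle. Hhex, a homeobox factor of anterior endoderm, was at 5.85 FPKM with RA and 6.36 FPKM with vehicle. Secreted and surface products of extraembryonic endoderm were mixed, with 2 of 5 measured members higher and 1 lower. Plat, the tissue plasminogen activator gene, was at 6.60 FPKM with RA and 0.151 FPKM with vehicle (response 2.72).

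Basement membrane genes were higher in part. Of 15 measured members 5 were at least 2-fold higher and 0 lower, with a median of 0.75, and in the other lines 14 rose and 0 fell. Col4a1, a chain of the collagen of basement membranes, was at 73.0 FPKM with RA and 11.6 FPKM with vehicle (response 2.55). Its partner chain Col4a2 was at 32.1 FPKM with RA and 4.60 FPKM with vehicle (2.56). Serpinh1, the collagen chaperone gene, was at 138 FPKM with RA and 22.5 FPKM with vehicle (2.56). The laminin chain gene Lama1 was at 15.96 FPKM with RA and 6.86 FPKM with vehicle (1.11), while Nid1 and Nid2, which encode the linker proteins nidogens, had responses of -0.28 and -0.16. Of 9 measured integrin genes, the receptors of such matrices, 2 were higher (Itgb3 at 1.12 and Itga3 at 1.01) and 0 lower. Itga3 was under 2-fold under both other scalings (0.88 and 0.86), and Itgb3 after quantile normalization (0.77).

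Several neural progenitor genes were higher in wild-type cells and some neuronal genes were not. Of 11 measured neural genes 6 stood at least 2-fold higher and 0 lower, with a median of 1.08, while 16 listed genes lay under the mean of 1 FPKM. Median-of-ratios scaling gave 5 higher and 1 lower, and quantile normalization 4 and 0. The list median was 0.82 in scramble and 0.25 in Carm1 shRNA cells, and in the other lines 7 rose and 2 fell. Pax6, a factor of neural progenitors, was at 7.72 FPKM with RA and 1.57 FPKM with vehicle (response 1.76). Sox1, an early neural plate marker, was at 33.0 FPKM with RA and 15.1 FPKM with vehicle (1.08), and the intermediate filament gene Nes at 5.51 FPKM with RA and 1.72 FPKM with vehicle (1.26). In scramble and Carm1 shRNA cells the responses were 1.47 and 0.64 for Pax6, 0.38 and 0.25 for Sox1, and 1.73 and 1.30 for Nes. Gap43, a growth cone protein gene, was at 66.0 FPKM with RA and 18.2 FPKM with vehicle (1.80). Tubb3 was at 65.9 FPKM with RA and 122 FPKM with vehicle, and Stmn2 at 92.1 FPKM with RA and 135 FPKM with vehicle. Both lay below equality, and of the 6 neuronal markers 0 were at least 2-fold higher.

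Mesodermal and trophoblast genes were mostly under the filter of a mean of 1 FPKM. Of 25 listed genes of the primitive streak and mesoderm 5 were measured, and 2 of these were at least 2-fold higher. Cdx1, a caudal homeobox factor and known RA target, was at 30.3 FPKM with RA and 4.43 FPKM with vehicle (response 2.53), and Meox1, a somite homeobox factor, at 4.39 FPKM with RA and 0.781 FPKM with vehicle. The median of 0.21 was -0.23 after quantile normalization. Of 4 measured trophoblast genes the homeobox gene Esx1 was higher (4.85 FPKM with RA, 1.25 FPKM with vehicle) and the zinc finger gene Gata2 lower (0.933 FPKM with RA, 3.34 FPKM with vehicle). Gata2 did not pass in the other lines (responses of -0.03 in scramble and -0.17 in Carm1 shRNA cells, limma adjusted p = 0.352). The trophoblast median of 0.0045 was below 0 under both other scalings. The 4 measured fibroblast and feeder genes split likewise, with the receptor gene Pdgfrb higher (6.32 FPKM with RA, 1.32 FPKM with vehicle) and the surface glycoprotein gene Thy1 lower (0.410 FPKM with RA, 1.83 FPKM with vehicle).

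Among germ cell genes the gatekeeper of meiosis dominated. Stra8, whose name records its stimulation by RA, was at 437 FPKM with RA and 23.4 FPKM with vehicle (response 4.16). Rec8, a meiotic cohesin gene, was at 29.5 FPKM with RA and 5.95 FPKM with vehicle (2.14). Of 15 measured members 4 were at least 2-fold higher and 0 lower, with a median of 0.51. Sycp3, a gene of the synaptonemal complex, was at 3.23 FPKM with RA and 1.97 FPKM with vehicle. Dmrt1, a germ cell transcription factor, was at 22.5 FPKM with RA and 22.4 FPKM with vehicle.

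FGF signalling genes moved in both directions. Of 12 measured ligands, receptors and cofactors 4 were at least 2-fold higher and 3 lower. Those higher were the receptor genes Fgfr2 (3.87 FPKM with RA, 0.276 FPKM with vehicle) and Fgfr1 (54.2 FPKM with RA, 23.5 FPKM with vehicle), with Flrt3 and Fgfbp3. Those lower were all ligand genes, Fgf17, Fgf15 and Fgf4, the last at 15.8 FPKM with RA and 41.4 FPKM with vehicle. Fgf4, which drives ERK signalling in ES cells, did not pass in the other lines (responses -1.03 in scramble and 0.0045 in Carm1 shRNA cells, limma adjusted p = 0.105). Among 19 measured ERK targets and feedback inhibitors 2 were higher and 4 lower, with a median of -0.04. Median-of-ratios scaling gave 1 higher and 5 lower (median -0.18), and quantile normalization 0 and 5 (-0.32). In the other lines 5 of the 19 rose and 11 fell. The feedback inhibitor Spry4 was at 29.1 FPKM with RA and 69.0 FPKM with vehicle (response -1.22), and the phosphatase gene Dusp6 at 70.3 FPKM with RA and 43.6 FPKM with vehicle (0.68).

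In BMP signalling 3 of 14 measured genes stood at least 2-fold higher and 2 lower, the ligand gene Bmp4 and the target gene Gata2 (which did not pass in the other lines), with a median of 0.49. Id2, an inhibitor of basic helix-loop-helix factors and a BMP target, was at 54.7 FPKM with RA and 7.40 FPKM with vehicle (response 2.73). Smad6, an inhibitory Smad, was at 5.01 FPKM with RA and 1.28 FPKM with vehicle, and Msx2 at 5.31 FPKM with RA and 2.01 FPKM with vehicle. Id1 was at 66.4 FPKM with RA and 42.2 FPKM with vehicle (0.64), and Id3 at 21.7 FPKM with RA and 23.3 FPKM with vehicle (-0.10).

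In the Nodal pathway 2 of 17 measured genes stood at least 2-fold higher and 1 lower, the ligand gene Gdf1, with a median of 0.16 (0.03 after median-of-ratios scaling). Nodal itself was at 36.6 FPKM with RA and 34.2 FPKM with vehicle. Lefty1, a Nodal antagonist, was at 78.3 FPKM with RA and 22.8 FPKM with vehicle, while Lefty2 was at 16.1 FPKM with RA and 28.6 FPKM with vehicle. The Lefty genes are near copies whose reads the counting could split, so both levels are uncertain.

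In the WNT pathway 3 of 12 measured genes stood at least 2-fold higher and 0 lower, while 18 listed genes were under the mean of 1 FPKM. The higher genes included those of secreted antagonists. Sfrp5 was at 18.9 FPKM with RA and 1.71 FPKM with vehicle (response 2.87), and Sfrp2 at 25.1 FPKM with RA and 7.82 FPKM with vehicle (1.57). The receptor gene Fzd2 was at 7.70 FPKM with RA and 1.08 FPKM with vehicle (2.07). Axin2, a direct target of WNT signalling, was at 1.31 FPKM with RA and 2.58 FPKM with vehicle (-0.63). The median of 0.05 was below 0 under both other scalings. In LIF and JAK-STAT3 signalling 1 of 14 was higher, the kinase gene Jak2 (4.24 FPKM with RA, 1.36 FPKM with vehicle), and 1 lower, the feedback inhibitor Socs2 (16.02 FPKM with RA, 35.6 FPKM with vehicle). These counts are near the shares of all genes (6.24% and 1.24%), and Jak2 was under 2-fold after quantile normalization (0.78). Stat3 was at 35.7 FPKM with RA and 38.5 FPKM with vehicle.

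G1 cyclins and their kinases were mostly lower by less than 2-fold. Of 12 measured genes 1 was at least 2-fold higher and 1 lower, against 6.24% and 1.24% of all genes. Of the 12, 9 lay below 0, and in the other lines 8 fell and 0 rose. Ccnd1, the cyclin D1 gene, was at 43.3 FPKM with RA and 84.0 FPKM with vehicle (response -0.94), and Ccne1, the cyclin E1 gene, at 58.7 FPKM with RA and 106 FPKM with vehicle (-0.84). Cdk6, a kinase that pairs with D cyclins, was at 3.73 FPKM with RA and 11.9 FPKM with vehicle (-1.45). Ccnd2, the cyclin D2 gene, went the other way in wild-type cells with 38.2 FPKM with RA and 12.1 FPKM with vehicle (1.58). In the other lines it did not pass, with responses of 0.96 in scramble and -1.02 in Carm1 shRNA cells (limma adjusted p = 0.959).

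The list of CDK inhibitors also held the pocket protein genes Rb1, Rbl1 and Rbl2, which act downstream of the kinases. Of its 8 measured genes 2 stood at least 2-fold higher and 0 lower, Cdkn1c (24.9 FPKM with RA, 4.62 FPKM with vehicle) and Cdkn2a (2.84 FPKM with RA, 0.718 FPKM with vehicle). In the Myc network 1 of 12 was higher and 2 were lower, against 6.24% and 1.24% of all genes. Myc was at 16.3 FPKM with RA and 47.6 FPKM with vehicle (response -1.49), and Mycn at 11.4 FPKM with RA and 32.3 FPKM with vehicle (-1.42). Mxd4, a repressor that competes with Myc for its partner Max, was at 9.74 FPKM with RA and 2.01 FPKM with vehicle (1.84). The list's median of 0.15 was -0.09 after quantile normalization.

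Of 21 measured p53 pathway genes 0 stood at least 2-fold higher and 0 lower, against 6.24% and 1.24% of all genes, with a median of -0.10; so few calls are near the share of all genes. Trp53 itself was at 308 FPKM with RA and 369 FPKM with vehicle. Among 18 apoptosis regulators 3 were at least 2-fold higher and 0 lower, against 2 and 0 after median-of-ratios scaling and 1 and 1 after quantile normalization. The 3 higher as deposited were Bcl2l11 (16.1 FPKM with RA, 5.76 FPKM with vehicle) and Bmf (16.3 FPKM with RA, 6.75 FPKM with vehicle), which encode pro-apoptotic BH3-only proteins, and the initiator caspase gene Casp8. Of 21 heat shock and unfolded protein response genes 1 was higher, Hspb8, and 0 lower, which is also near the share of all genes. Their median of 0.0062 was below 0 under both other scalings.

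Of 27 measured glycolysis and hypoxia genes 3 stood at least 2-fold higher and 1 lower, against 6.24% and 1.24% of all genes. Slc2a1, the glucose transporter GLUT1 gene, was at 611 FPKM with RA and 188 FPKM with vehicle (response 1.69), and Slc2a3 at 757 FPKM with RA and 453 FPKM with vehicle (0.74). Pdk1, which restrains entry of pyruvate into mitochondria, was at 16.4 FPKM with RA and 51.8 FPKM with vehicle (-1.60). The glycolytic enzyme genes named next did not pass 2-fold and lay on both sides of equality. They were Ldha (349 FPKM with RA, 572 FPKM with vehicle, -0.71) and Eno1 (269 FPKM with RA, 434 FPKM with vehicle, -0.69), with Pfkm at a response of 0.57. The list's median of 0.01 was below 0 under both other scalings, and in the other lines 10 rose and 11 fell.

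Genes of serine, glycine and threonine metabolism were mostly lower, with 15 of 17 measured genes below 0 and a median of -0.40. Past 2-fold there was Tdh alone, and in the other lines 12 of the 17 fell and 1 rose. Shmt1, a serine hydroxymethyltransferase gene, was at 59.6 FPKM with RA and 117 FPKM with vehicle (response -0.96), and Gldc, the glycine decarboxylase gene, at 11.4 FPKM with RA and 21.2 FPKM with vehicle (-0.84). Genes of cholesterol synthesis and uptake were shifted the other way. Of 24 measured members 23 lay above 0, and the median was 0.36 (0.22 and 0.31 under the other scalings). Past 2-fold 2 were higher and 0 lower, near the shares of all genes (6.24% and 1.24%). In the other lines 20 rose and 1 fell. Ebp, a sterol isomerase gene, was at 26.8 FPKM with RA and 12.7 FPKM with vehicle (1.02), and Sc5d, a sterol desaturase gene, at 23.1 FPKM with RA and 13.3 FPKM with vehicle (0.75).

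Metallothionein genes, whose products bind zinc, were lower with RA. Mt2 was at 98.8 FPKM with RA and 327 FPKM with vehicle (response -1.72), and Mt1 at 45.7 FPKM with RA and 140 FPKM with vehicle (-1.59). Among 14 amino acid transporter genes 0 stood at least 2-fold higher and 1 lower, the cationic amino acid transporter gene Slc7a3 (20.5 FPKM with RA, 60.2 FPKM with vehicle, -1.51). In DNA methylation the maintenance enzyme gene Dnmt1 was at 69.3 FPKM with RA and 75.5 FPKM with vehicle, and the de novo enzyme gene Dnmt3a at 39.9 FPKM with RA and 20.2 FPKM with vehicle (0.95). Its cofactor gene Dnmt3l was at 4.57 FPKM with RA and 11.6 FPKM with vehicle (-1.17). The stress-inducible gene Gadd45g was at 4.48 FPKM with RA and 0.307 FPKM with vehicle (2.07). Of the Lin28, Hmga2 and Igf2bp group, Lin28a, the RNA-binding gene of pluripotent cells, was at 25.7 FPKM with RA and 70.5 FPKM with vehicle (-1.42), and Hmga2, an architectural chromatin factor, at 32.7 FPKM with RA and 13.2 FPKM with vehicle (1.25).

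Imprinted genes, expressed from a single parental allele, had many large responses. Of 20 measured members 10 were at least 2-fold higher and 1 lower, with a median of 1.07, against 6.24% and 1.24% of all genes. In the other lines 15 rose and 2 fell. Nnat, the neuronatin gene, was at 51.3 FPKM with RA and 7.32 FPKM with vehicle (response 2.65). Peg10, a gene of retrotransposon origin, was at 159 FPKM with RA and 38.9 FPKM with vehicle (2.003), and Sgce, its neighbour with a shared control region, at 8.73 FPKM with RA and 0.970 FPKM with vehicle (2.30). Ndn, the necdin gene, was at 25.4 FPKM with RA and 8.41 FPKM with vehicle (1.49). The lower gene was Phlda2.

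Epithelial and immune lists were mixed. Of 17 measured junction and keratin genes 3 stood at least 2-fold higher and 1 lower. Higher were Cdh2, the keratin gene Krt18 (6.71 FPKM with RA, 1.88 FPKM with vehicle) and the repressor gene Zeb2 (2.36 FPKM with RA, 0.378 FPKM with vehicle), and lower was Cdh3. Cdh1, the E-cadherin gene, was at 73.6 FPKM with RA and 54.8 FPKM with vehicle (response 0.42). Of 14 interferon and innate immunity genes 1 was higher and 1 lower, against 6.24% and 1.24% of all genes. Calls this few are near these shares. Higher was the complement gene C3 (6.05 FPKM with RA, 0.0191 FPKM with vehicle). Lower was the RNA sensor gene Ddx58 (1.06 FPKM with RA, 4.45 FPKM with vehicle).

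**Figure D4:**
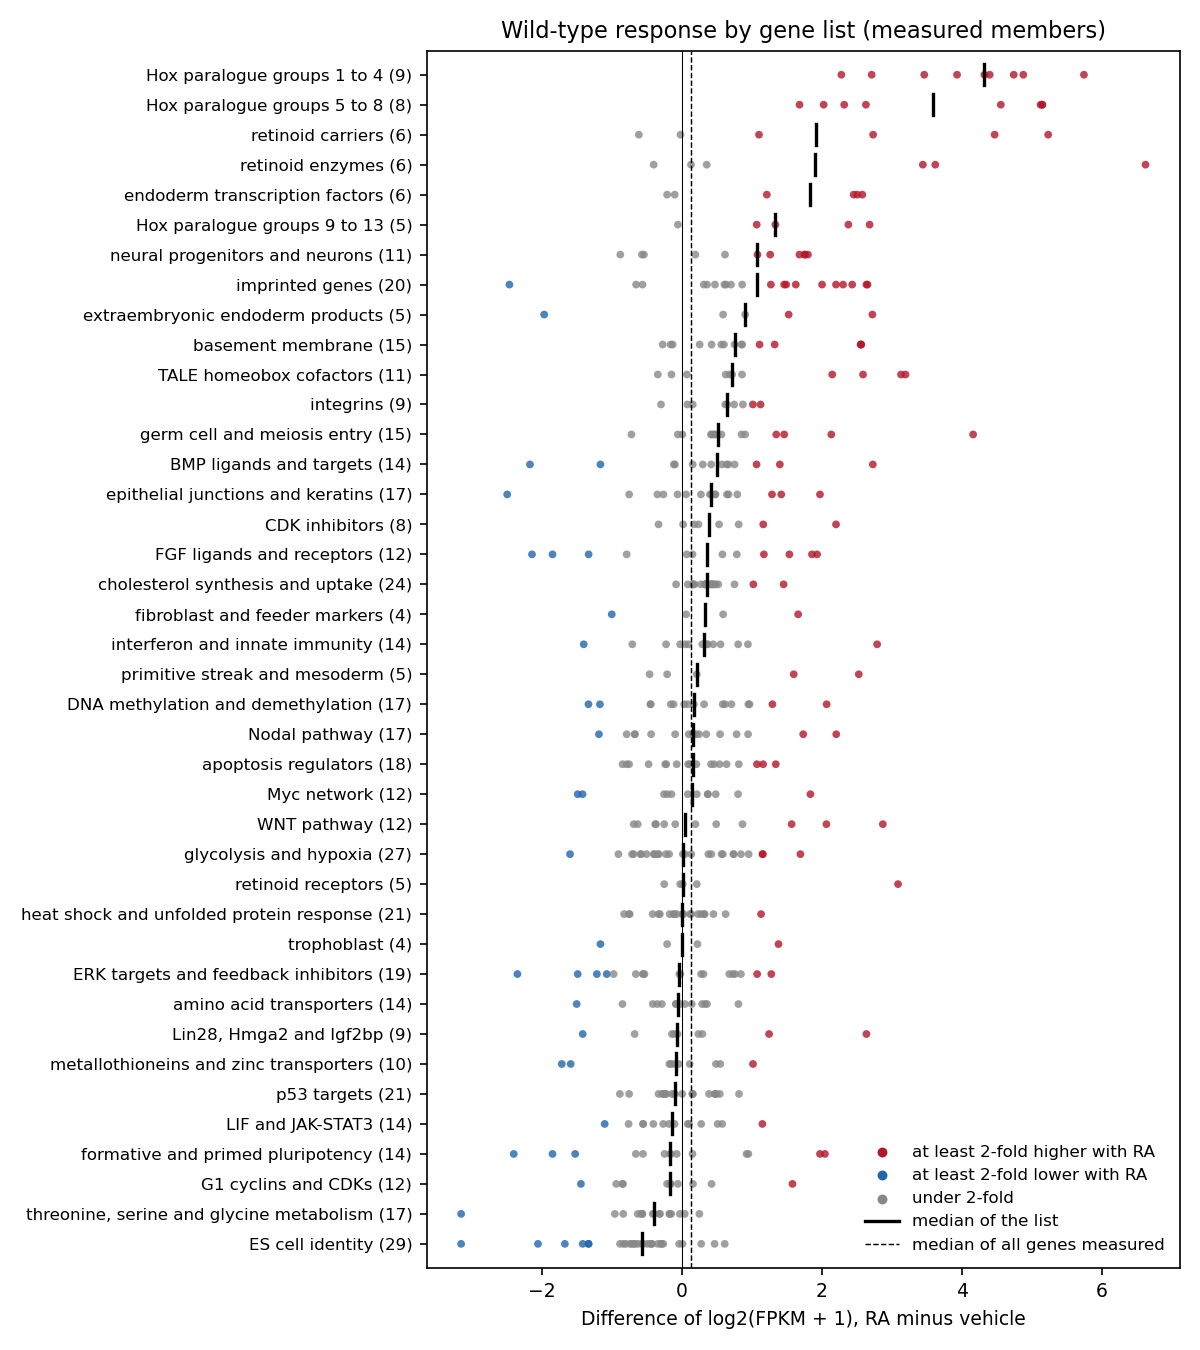
Wild-type responses, RA minus vehicle in log2(FPKM + 1), of the measured members of each gene list with at least 4, with their number in parentheses. Points are genes, short bars are list medians and the dashed line is the median of all genes (0.12); the lists of Hox groups 1 to 4 and 5 to 8 have the highest medians and ES cell identity the lowest.

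Large families of housekeeping genes, counted after the first results were seen, had small responses in a narrow range. The 95 measured cytosolic ribosomal protein genes had a median response of -0.24, and 1 was past 2-fold (Rps27). The 76 mitochondrial ribosomal protein genes had a median of -0.23, the 57 translation initiation factor genes -0.20, the 17 aminoacyl-tRNA synthetase genes -0.31 and the 7 genes of the CCT chaperonin -0.32, and 0 genes of these 4 families were past 2-fold. All 5 medians were also below 0 under both other scalings. After quantile normalization, however, that of the cytosolic ribosomal protein genes was -0.018, above the median of all genes (-0.037). The 37 genes of respiratory complex I had a median of -0.04, which was 0.02 after quantile normalization. Families of signalling and differentiation were wider. Among 29 measured semaphorin, plexin, ephrin and Eph receptor genes, which guide cell movement and axons, 8 were at least 2-fold higher and 0 lower, led by Sema3e (13.6 FPKM with RA, 1.79 FPKM with vehicle). Of 44 collagen genes in the table only 6 were measured, and 4 of these were higher and 0 lower.

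Fewer genes passed 2-fold in wild-type cells than in the other lines. Over the same 11146 genes RA gave 1221 genes (11%) at least 2-fold higher and 212 (1.9%) lower in scramble cells, and 1002 (8.99%) higher and 195 (1.75%) lower in Carm1 shRNA cells, against 695 and 138 in wild-type cells. The responses correlated across genes, with Pearson r of 0.917 between wild-type and scramble cells, 0.892 between wild-type and Carm1 shRNA cells, and 0.943 between the shRNA lines. These are descriptions over 11146 genes, which are not independent replicates. To set sizes side by side, genes were also picked in the remaining line. Since the shRNA lines correlated most closely, such a pick is not neutral between the lines compared, and the medians are descriptions. For the 1002 genes at least 2-fold higher in Carm1 shRNA cells the median response was 1.12 in wild-type and 1.49 in scramble cells, and 872 were smaller in wild-type cells. For the 1221 genes higher in scramble cells it was 1.02 in wild-type and 1.28 in Carm1 shRNA cells, with 908 smaller in wild-type cells. Lower genes had the same order, with medians of -1.03 in wild-type and -1.25 in scramble cells over the 195 picked in Carm1 shRNA cells. Over the 212 picked in scramble cells the medians were -0.99 in wild-type and -1.16 in Carm1 shRNA cells. The order of the medians was the same under both other scalings, and no replicate cultures exist to test it.

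**Figure D5:**
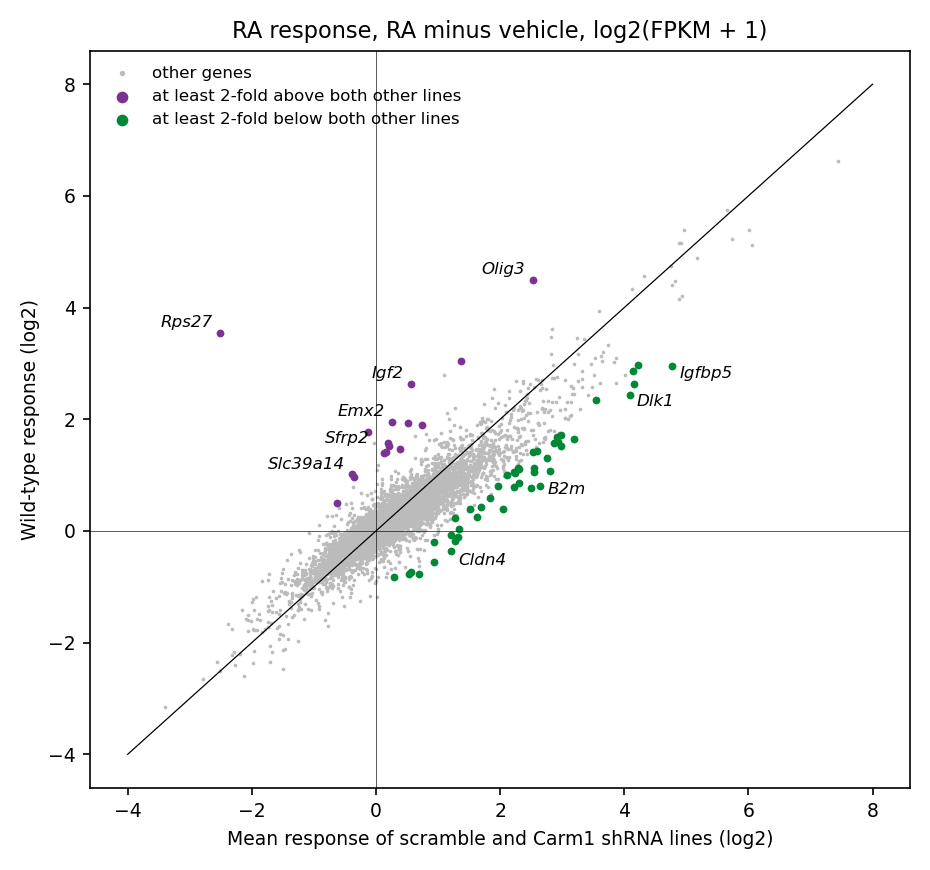
Wild-type response against the mean response of the scramble and Carm1 shRNA lines, each RA minus vehicle in log2(FPKM + 1), for the 11146 genes. The diagonal marks equal responses; 16 genes lie at least 2-fold above both other lines (purple) and 45 at least 2-fold below both (green).

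Few genes differed in response between wild-type cells and both other lines. In the limma interaction of treatment with the wild-type line 0 of 11227 genes passed (0% called), the smallest adjusted p being 0.117, and 1210 had an unadjusted p under 0.05. With limma's mean-variance trend 83 genes passed above and 225 below. The error of this fit is the difference between the 2 shRNA lines, and wild-type cells are assumed to vary like them. By size, 16 genes (0.144%) had a wild-type response at least 2-fold above both other lines and 45 (0.404%) at least 2-fold below both. The same count with scramble cells in that place was 6 above and 1 below, and with Carm1 shRNA cells 5 above and 7 below.

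The genes with a larger response in wild-type cells include developmental regulators. Olig3 (chromosome 10, 19076345 to 19078410, build mm9) was at 22.7 FPKM with RA and 0.0496 FPKM with vehicle in wild-type cells, at 6.28 and 0.111 FPKM in scramble cells, and at 4.32 and 0.0518 FPKM in Carm1 shRNA cells. RA-treated wild-type cells thus stood above both other lines, while all vehicle values were near 0. The wild-type response minus that of the other lines was 1.97 ± 0.20 (SE, limma adjusted p = 0.123). Igf2, the imprinted growth factor gene, was at 7.31 FPKM with RA and 0.336 FPKM with vehicle in wild-type cells, against at most 0.747 FPKM in the other lines (difference 2.07 ± 0.18 SE, limma adjusted p = 0.117, and 1.06 with a pseudocount of 5). Emx2, a forebrain homeobox gene, was at 4.26 FPKM with RA and 0.368 FPKM with vehicle in wild-type cells. It was at 0.309 and 0.0157 FPKM in scramble cells and at 0.109 and 0 FPKM in Carm1 shRNA cells. Emx2 lay under the limit of the fit. As a ratio of FPKM its rise was larger in scramble than in wild-type cells, so its place here rests on the pseudocount of 1. Sfrp2 was at 25.1 FPKM with RA and 7.82 FPKM with vehicle in wild-type cells, at 13.04 and 11.9 FPKM in scramble cells, and at 9.79 and 7.92 FPKM in Carm1 shRNA cells (difference 1.37 ± 0.15 SE, limma adjusted p = 0.123). Wild-type cells thus had the highest RA level and the lowest vehicle level of Sfrp2.

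Others on this side differed in level between the lines as well. Mest, an imprinted gene, was at 207 FPKM with RA and 74.7 FPKM with vehicle in wild-type cells, against 1.82 and 1.09 FPKM in scramble cells and 1.91 and 1.31 FPKM in Carm1 shRNA cells. The difference in response was 1.08, far smaller than the difference in level. Levels of Mest in the other lines were near the pseudocount of 1, which understates changes of low genes, so its place here depends on the pseudocount. Aurkc, a meiotic Aurora kinase gene, was at 15.9 FPKM with RA and 1.06 FPKM with vehicle in wild-type cells, against 2.43 and 0.0645 FPKM in scramble cells and 1.64 and 0.265 FPKM in Carm1 shRNA cells. Its difference of 1.66 rests on the pseudocount, since it was 0.69 with a pseudocount of 0.1. Slc39a14, a zinc and iron transporter gene, was at 28.7 FPKM with RA and 13.7 FPKM with vehicle in wild-type cells, while it fell in the other lines (mean response -0.38, limma adjusted p = 0.0435). Srms, a tyrosine kinase gene, and the histone gene Hist1h4b were below the limit of the fit.

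The largest value on this side belongs to Rps27, which encodes a protein of the small ribosomal subunit, and it is uncertain. Its levels were 80.0 FPKM with RA and 5.91 FPKM with vehicle in wild-type cells, 5.08 and 137 FPKM in scramble cells, and 3.89 and 5.99 FPKM in Carm1 shRNA cells. The high libraries were thus RA-treated wild-type cells and vehicle-treated scramble cells. Its span on chromosome 3 (90016589 to 90017570, build mm9) overlaps that of Gm9846 by 981 bases, and Gm9846 was at 2371 to 2706 FPKM in the 6 libraries. Reads of these entries cannot be told apart here, and the difference in response was 6.06 ± 1.47 (SE, limma adjusted p = 0.229).

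The genes with a smaller response in wild-type cells include surface and secreted proteins. B2m, the invariant chain of class I histocompatibility molecules, was at 51.7 FPKM with RA and 29.2 FPKM with vehicle in wild-type cells, at 63.4 and 9.70 FPKM in scramble cells, and at 58.9 and 8.21 FPKM in Carm1 shRNA cells. The RA levels lay close together, and the vehicle level was highest in wild-type cells (difference in response -1.84 ± 0.15 SE, limma adjusted p = 0.117). The span of B2m overlaps that of Patl2 by 5396 bases. Patl2 was at 1.55 FPKM with RA and 3.50 FPKM with vehicle in wild-type cells and at most 0.521 FPKM in the other lines. Wfdc2, which encodes a secreted protease inhibitor, had the same order as B2m, with 42.6 FPKM with RA and 24.4 FPKM with vehicle in wild-type cells, 44.8 and 8.78 FPKM in scramble cells, and 44.2 and 5.59 FPKM in Carm1 shRNA cells.

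For other genes on this side the RA level set wild-type cells apart. Dlk1, an imprinted gene of a Notch-related surface protein, was at 7.82 FPKM with RA and 0.633 FPKM with vehicle in wild-type cells, at 28.0 and 0.484 FPKM in scramble cells, and at 23.9 and 0.693 FPKM in Carm1 shRNA cells (difference -1.65 ± 0.21 SE, limma adjusted p = 0.123). Igfbp5, an insulin-like growth factor binding protein gene, was at 7.11 FPKM with RA in wild-type cells, against 24.97 FPKM in scramble and 29.0 FPKM in Carm1 shRNA cells, with every vehicle value under 0.1 FPKM (difference -1.83). Efemp1, a fibulin gene, was at 2.04 FPKM with RA in wild-type cells, against 7.34 and 8.25 FPKM in the other lines (difference -1.47, and -0.85 with a pseudocount of 5). On the scale log2(FPKM + 1) imprinted genes thus stand on both sides, with Igf2 and Mest above and Dlk1 below, though the place of Mest depends on the pseudocount.

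The keratin genes Krt8 and Krt18 and the claudin gene Cldn4 are described for their place among the 45 genes. Krt8 was at 10.7 FPKM with RA and 5.74 FPKM with vehicle in wild-type cells, against 23.4 and 3.90 FPKM in scramble cells and 24.0 and 4.75 FPKM in Carm1 shRNA cells, and its partner Krt18 was likewise at least 2-fold below. Cldn4, a tight junction gene, was at 4.54 FPKM with RA and 6.06 FPKM with vehicle in wild-type cells, a response of -0.35. It was at 12.1 and 5.44 FPKM in scramble cells and at 15.8 and 5.39 FPKM in Carm1 shRNA cells, where it rose (limma adjusted p = 0.00058). Klk13, a kallikrein gene, had a wild-type response of -0.18, against 1.31 in scramble and 1.24 in Carm1 shRNA cells. Atp2b4, a plasma membrane calcium pump gene, had a response of 0.40 in wild-type cells, against 2.01 in scramble and 2.10 in Carm1 shRNA cells. With a pseudocount of 5 the differences of Klk13 and Atp2b4 were -0.64 and -0.73, against -1.46 and -1.66 with 1, and that of Atp2b4 was -2.60 with 0.1. The BMP target genes Id3 and Msx2 were on this side as well, with responses of -0.10 and 1.07 in wild-type cells, 1.66 and 2.21 in scramble cells, and 0.97 and 3.39 in Carm1 shRNA cells.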

How the data were processed

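RNA was sequenced in 6 libraries, 1 for each line and treatment, as single-end reads of 51 bases, per the labels' protocols. The authors deposited FPKM values. Per the submitters' processing notes, these came from TopHat2 and Cufflinks with the mm9 build; for versions, strand and scaling between libraries, nothing is given in the sources used here. The table held 20793 rows with 20462 symbols. Of rows that share a symbol, the one of highest mean was used, and 2 genes with a failed estimate (Ddx19b and Zmynd8) were left out, which left 20460. FPKM carry no counts, so values were analysed as log2(FPKM + 1), with a pseudocount of 1, which understates changes of low genes.

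The wild-type response was described by size without a test. The other lines were fitted with limma 3.58.1 in R 4.3.3 (line as block, mean over the 6 libraries not under 1 FPKM, two-sided, Benjamini-Hochberg, threshold 0.05), and an interaction fit over all 6 libraries compared wild-type cells with them. The script was tested on simulated data. Alternatives were other pseudocounts, filters, scalings and fold thresholds, a mean-variance trend, and leaving out a line. Named genes were the 15 largest and 15 smallest responses, up to 8 per direction that differed at least 2-fold from both other lines, and members of 41 gene lists. Clone names and small RNAs were not named. A few genes picked by this rule are left unreported. The members and lists were chosen with earlier results of these data known, and the housekeeping families were added after seeing values. Promoter sequences came from RefSeq (GRCm38.p6), matched by symbol. Depth was estimated from the steps of low values. Coordinates are those of the deposited table, written from 1.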

Additional observations from a re-analysis of the deposited data

Results flagged for a closer look

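Among the genes picked by the naming rule or measured on the gene lists, not among all genes, a gene was set apart here when its wild-type response went against that of both other lines, each response being at least 0.25 in size. There were 4 such genes, and in the interaction fit none of the 4 passed (limma adjusted p not under 0.05), so the difference between lines is given as a value. Rps27 was higher with RA in wild-type cells (3.55) and lower in scramble (-4.51) and Carm1 shRNA cells (-0.52), a wild-type response minus the mean of the other lines of 6.06; its reads cannot be told apart from those of Gm9846. Gbx2, a homeobox factor of naive pluripotency, had a response of 0.28 in wild-type cells against -0.60 and -0.97 (difference 1.06). Notum, which encodes a secreted WNT antagonist, had a response of 0.49 in wild-type cells against -0.54 and -0.42 (difference 0.97). Cldn4 went the other way, at -0.35 in wild-type cells against 1.02 and 1.39 (difference -1.56).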

How the results depend on the processing

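The wild-type counts of 695 higher and 138 lower genes depend on the scale. The higher count was 1077 with a pseudocount of 0.1, 247 with a pseudocount of 5, 362 at a mean of at least 5 FPKM and 442 after quantile normalization, and 1808 and 136 at fold thresholds of 1.5 and 4. The lower count was 58 with a pseudocount of 5, 91 at a mean of at least 5 FPKM and 289 after quantile normalization, and 503 and 17 at the same fold thresholds. In the other lines the counts of 4693 higher and 2295 lower became 0 and 0 without a filter on low values, where 7407 of 20460 genes had an unadjusted p under 0.05; the cause was not tested. Median-of-ratios scaling gave 3610 lower, and quantile normalization 2874 higher and 3751 lower. Without the block for line the counts were 4054 and 1888. No paired analysis was possible for replicates because the labels carry no replicate numbers and each group holds 1 library; the block is the line.

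The interaction fit gave 0 and 0, against 17 above and 26 below with a pseudocount of 5 and 83 and 225 with a mean-variance trend. By size, the 16 above and 45 below became 25 and 113 with a pseudocount of 0.1, and 7 and 8 with a pseudocount of 5. At a mean of at least 5 FPKM 22 were below, and after quantile normalization 25 were above. Judged without the scramble line the counts were 41 and 116, and 26 and 96 when the Carm1 shRNA line was left out. For the wild-type responses of single genes, 63 values under other settings moved by no more than the spread between the 3 lines, 57 moved further and 0 reversed. For their differences from the other lines, 76 kept their direction and stayed short of the threshold, 23 passed newly and 0 reversed, though sizes could change. Single libraries limit every wild-type value, and low genes rest on few reads.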
